A study of Mus musculus with 2 samples.

Results

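Immature neutrophils that carry transcripts of secondary granule proteins were described in pancreatic tumours of KPPC mice. The cells were chosen by their own counts. A barcode needed at least 10 UMIs (unique molecular identifiers, which tag RNA molecules so that copies are counted once) over Camp, Ngp and Ltf, and fewer than 10 over the primary granule genes Elane, Mpo and Prtn3. It could hold at most 2 UMIs over the macrophage genes C1qa, C1qb and C1qc and none of Cd79a, Cd3e and Epcam, which mark B cells, T cells and epithelium. Every barcode also had at least 1000 UMIs and 500 genes, with at most 20% of UMIs from mitochondrial genes. The rule found 659 members among 36662 barcodes past these filters. The takinib library held 646 of them and the vehicle library 13.

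Single-cell RNA was captured from 2 tumour libraries, 1 of mice given vehicle and 1 of mice given takinib at 50 mg/kg, an inhibitor of the kinase TAK1. The mice were 6 weeks old and treatment ran for 14 days. The labels name the strain only as KPPC, a genetically engineered model of pancreatic cancer, and its alleles are not spelled out in the sources used here. The number of mice behind each library is not stated either, so no difference has a replicate check and no test was possible. All intervals in square brackets are 95% intervals, exact Poisson for levels and exact binomial (Clopper-Pearson) for shares, and cover counting error only.

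Neutrophils mature in the bone marrow through ordered waves of granule synthesis. Dividing promyelocytes make the primary granule proteases, myelocytes and metamyelocytes make the secondary granule proteins under the transcription factor C/EBPε (gene Cebpe), and band cells make the gelatinase granules before the mature cell leaves for the blood. Division ends around the myelocyte stage, and most neutrophils in blood and tissue have passed it.

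The 3 genes of the rule lie on mouse chromosome 9 within 1195389 bases of each other (GENCODE M21, build GRCm38, which mm10 denotes). Camp encodes the cathelicidin precursor and spans chr9:109847379-109849617 on the minus strand. Ngp, neutrophilic granule protein, spans chr9:110419747-110423012, and Ltf, the iron-binding lactoferrin, chr9:111019271-111042767, both on the plus strand. Their upstream sequences are shown because these genes define the cells and are known targets of C/EBPε. Each is the stretch of RefSeq's promoter window (GRCm38.p6) that lies outside the GENCODE gene, 5′ to 3′ on the gene's strand. Capitals mark matches to the C/EBP-type motif TTGCNNAA on either strand (TTNNGCAA on the other).
Camp, chr9:109849618-109849706: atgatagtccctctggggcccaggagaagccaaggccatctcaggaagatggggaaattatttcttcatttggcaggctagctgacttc
Ngp, chr9:110419558-110419746: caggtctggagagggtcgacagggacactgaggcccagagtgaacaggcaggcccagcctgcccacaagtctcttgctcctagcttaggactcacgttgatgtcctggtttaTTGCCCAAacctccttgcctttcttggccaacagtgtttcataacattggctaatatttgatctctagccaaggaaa
Ltf, chr9:111019042-111019270: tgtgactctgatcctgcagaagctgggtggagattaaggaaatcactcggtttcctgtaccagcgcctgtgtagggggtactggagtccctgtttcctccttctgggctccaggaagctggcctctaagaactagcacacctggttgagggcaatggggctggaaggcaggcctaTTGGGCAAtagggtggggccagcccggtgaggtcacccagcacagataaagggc
Over the whole 250-base window upstream of RefSeq's start, Ngp held 2 matches, Ltf 1 and Camp 0. Of 32536 promoter windows of this length, 9.57% held at least 1 match. Between Camp and Ltf lie 28 other protein-coding genes, of which 11 had enough counts to be compared between immature and mature neutrophils. Their median log2 ratio was -0.01, with 1 gene past 2-fold higher (Cdc25a, a phosphatase of the cell cycle, 1.00) and 1 past 2-fold lower (Ptpn23, -1.04).

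Immature neutrophils made up 2.41% [2.23, 2.60] of the takinib barcodes and 0.132% [0.0701, 0.225] of the vehicle barcodes. Mature neutrophils, defined by at least 3% of UMIs from S100a8 and S100a9 and fewer than 10 over Camp, Ngp and Ltf, made up 34.7% [34.2, 35.3] and 0.952% [0.770, 1.16]. Precursors with at least 10 primary granule UMIs numbered 129 in takinib and 1 in vehicle. Within the neutrophil lineage (precursors, immature and mature cells together), the immature share was 6.41% [5.94, 6.90] in takinib and 12.04% [6.57, 19.7] in vehicle, with overlapping intervals. The takinib library thus held more immature neutrophils as a share of all barcodes, beside more neutrophils of every stage. The vehicle share stood on 13 of 108 barcodes and moved with the filters. It was 7.26% with a minimum of 500 UMIs and 250 genes and 54.5% with a minimum of 2000 UMIs and 1000 genes, against 4.96% and 15.9% in takinib. Vehicle mature neutrophils were shallow, with a median of 1252 UMIs and 13.5% mitochondrial UMIs, and takinib mature neutrophils had 1998 UMIs and 0.958%. The shallowest barcode in the takinib file had 500 UMIs, whereas the vehicle file went down to 0. The part of depth, mitochondrial content and this prior filter in the shares was not tested.

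Members held more UMIs than mature neutrophils. The rule asks for a set number of Camp, Ngp and Ltf UMIs, which favours deep barcodes. The 116 mature takinib barcodes just outside the threshold, with 7 to 9 of these UMIs, had a median of 3391 UMIs. The part of the rule in the members' depth was not tested. The takinib members had a median of 5446 UMIs (1100 to 28191) and 1366 genes, compared with 1998 UMIs and 752 genes in takinib mature neutrophils and 13594 UMIs in precursors. The vehicle members had 3039 UMIs (1017 to 8668) and 902 genes. Cut down to 1000 UMIs a barcode, takinib members showed a median of 418 genes, mature neutrophils 469 and precursors 573, so at equal depth the members' counts covered the fewest genes of these 3 classes. Of the takinib members' UMIs 28.4% came from Camp, Ngp, Ltf, S100a8 and S100a9 alone, against 11.9% in mature neutrophils.

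The values that chose the members covered a wide range. In takinib, Camp, Ngp and Ltf together gave a median of 134 UMIs a barcode (10 to 1288), or 2.45% of its UMIs (0.0390 to 18.3). The 13 vehicle members ran from 1.02% to 11.2% with a median of 5.28%. In takinib 205 members held under 1% of their UMIs in these genes, and in vehicle none of 13 did. Cells just inside and just outside the threshold had like levels of several neutrophil genes. The 60 takinib members with 10 to 12 UMIs had 15129 CPM (the depth-scaled count of a gene, relative to all UMIs of the class) of Lcn2, 11160 of Retnlg and 4459 of Il1b, and the 116 barcodes with 7 to 9 UMIs that counted as mature had 15517, 10183 and 5163. Mki67 stood at 50.7 CPM inside and 9.73 outside, and Cebpe at 3.90 and 9.73.

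**Figure D1:**
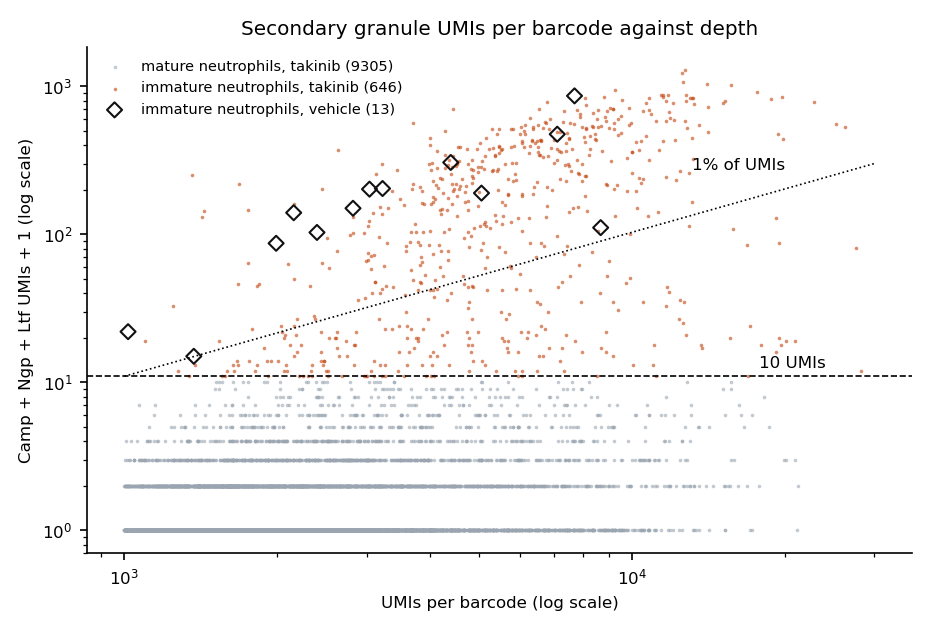
Summed UMIs of Camp, Ngp and Ltf plus 1 (vertical, log scale) against all UMIs of the barcode (horizontal, log scale), 1 point a barcode, for takinib mature (grey) and immature (orange) neutrophils and vehicle immature neutrophils (open diamonds). The dashed line is the threshold of 10 UMIs and the dotted line 1% of UMIs; 205 takinib members and no vehicle member lie below the dotted line.

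Members were checked against further markers. S100a8 and S100a9, the abundant calprotectin subunits of neutrophils, took a median of 27.4% of UMIs in takinib members and 24.0% in vehicle members, and 637 of 646 takinib members and all 13 vehicle members reached 3%. These genes did not choose the members, but they define the mature class. Of the markers of other cells, 9 macrophage genes outside the rule summed to 411 CPM in takinib members and 13063 in takinib macrophages, and 7 epithelial genes summed to 47.6 CPM. Of 7 eosinophil genes 4 had counts in takinib members (sum 11.5 CPM; Epx, Prg3 and Il5ra at 0), of 7 basophil and mast cell genes 5 (407 CPM, of which Hdc gave 406; Cpa3 and Cd200r3 at 0) and of 7 T and NK cell genes 6 (23.6 CPM; Trac at 0). All 8 monocyte genes had counts, summing to 1657 CPM in takinib members, of which Ly6c2 gave 1179, and to 900 in takinib mature neutrophils. The part of monocytes in the members' levels was not tested. The 9 erythroid genes summed to 1474 CPM in takinib members and 3083 in takinib mature neutrophils, and 6 members held at least 1% haemoglobin UMIs. Fibroblast genes came from a few barcodes: 10 members had at least 10 UMIs over Col1a1, Col1a2, Col3a1 and Dcn and carried 2190 of the members' 2311 UMIs of these genes, and 7 of the 10 lay in the group with under 1% of Camp, Ngp and Ltf. Without them the takinib members numbered 636, and 511 genes in place of 494 were past 2-fold in the comparison with mature neutrophils below. Transcripts of the rule genes were also found in other classes. Takinib macrophages had 445 CPM of Camp, Ngp and Ltf together, and 73 of 4208 reached 10 UMIs. Of takinib precursors, 77 of 129 reached 10 UMIs. Of 646 members, 35 were among the 6% of takinib barcodes with the highest doublet scores (5.42%), as were 292 of 9305 mature neutrophils (3.14%). The libraries shared 400 kept barcode sequences, none of them between members.

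The rule set aside further barcodes with these transcripts. In takinib 1128 barcodes reached 10 UMIs of Camp, Ngp and Ltf, and 482 of them were not members. Of these, 267 had Epcam, 122 more than 2 C1q UMIs, 103 at least 10 primary granule UMIs, 63 Cd79a and 19 Cd3e, some more than 1 of these. In the barcodes with Epcam, Ltf made up 29.7% of the 3 genes' UMIs and exceeded Camp and Ngp together in 151 of 267, compared with 13.5% and 2 of 646 in the members; lactoferrin is also a secretory product of glandular epithelium. Their median share of S100a8 and S100a9 was 1.09%.

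The members carried other secondary granule genes, several of them past 2-fold above mature neutrophils. The 3 rule genes themselves stood at 11457 (Camp), 18587 (Ngp) and 4693 CPM (Ltf) in takinib members and at 23873, 25325 and 6832 in vehicle members, with 45.0, 172 and 32.3 in takinib mature neutrophils. Of 10106 genes with at least 50 counts in either class, 276 (2.73%) were past 2-fold higher and 218 (2.16%) past 2-fold lower in takinib immature than in takinib mature neutrophils, 4.89% in all. The rule used this contrast, so these counts describe the classes and support nothing about them; 5 of the 276 were rule genes (Camp, Ltf, Ngp, Prtn3 and S100a8). Ratios are log2 of immature CPM plus 10 over mature CPM plus 10, and their median over all genes was -0.10. Of 13 secondary granule genes outside the rule, 6 were past 2-fold higher and 1 lower, with a median of 0.99. Cd177, a surface glycoprotein stored in these granules, measured 1125 CPM in takinib immature and 122 in takinib mature neutrophils, and 1787 and 584 in vehicle. Pglyrp1, a peptidoglycan-binding protein, measured 3600 and 1045 in takinib, and 3573 and 363 in vehicle. Itgb2l, an integrin β-chain of immature neutrophils, measured 136 and 3.09 CPM in takinib, and 236 and no count in vehicle. In both libraries the immature cells held the higher level of all 3. Lcn2, lipocalin-2, differed little between the takinib classes at 15342 and 11961 CPM, but stood at 11347 and 726 in vehicle. Slpi, a protease inhibitor, was the member of the list past 2-fold lower, with 2101 CPM in immature and 4830 in mature takinib neutrophils.

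**Figure D2:**
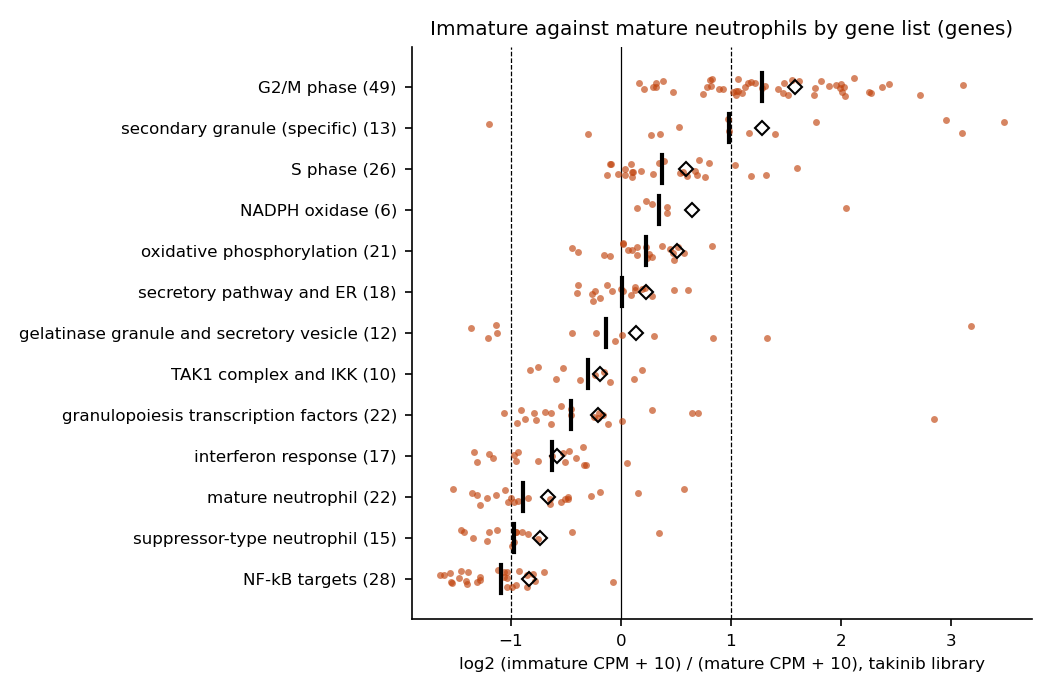
Log2 ratio of immature to mature neutrophils in the takinib library (horizontal; 10 CPM added to each level) for every gene of 13 lists that had at least 50 counts and was outside the rule, 1 dot a gene. Black bars are list medians, open diamonds the medians when Camp, Ngp, Ltf, S100a8 and S100a9 are left out of the totals, and dashed lines mark 2-fold; the G2/M list has the highest median, 1.28, and the NF-kB targets the lowest, -1.09.

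The genes with the highest ratios joined granule, membrane and division genes. Serpinb1a, which inhibits the serine proteases of primary granules, measured 487 [467, 509] CPM in takinib immature and 16.1 [14.6, 17.8] in takinib mature neutrophils, a log2 ratio of 4.25. In vehicle immature neutrophils it measured 491 [318, 725] CPM. Vehicle mature neutrophils had no count of it, with an interval that reaches 29.1 CPM. The level in immature cells differed between the libraries by less than the counting interval. Cebpe itself stood at 121 [111, 132] and 8.26 [7.16, 9.47] CPM in takinib, a ratio of 2.84, and at 275 [150, 461] and 126 [72.1, 205] in vehicle, where the intervals overlap. Other genes among the 15 with the highest ratios were Ifitm6, an interferon-induced membrane protein family member (3.81), Adpgk, an ADP-dependent glucokinase (3.76), Aldh2 (3.21) and Anxa1, encoding annexin A1 of the gelatinase granules (3.18). Ly6c2, part of the Gr-1 epitope and shared with monocytes, reached 3.10, Fcnb, the lectin ficolin B, 2.96, and Lta4h, which makes leukotriene B4, 2.64. G6pdx, the entry enzyme of the pentose phosphate route that supplies NADPH, reached 2.53. Cybb, the catalytic NADPH oxidase subunit, measured 1177 CPM in immature and 278 in mature takinib neutrophils, and 1963 and 118 in vehicle. It was the only one of 6 oxidase genes past 2-fold; the other 5 ranged from 0.15 to 0.42.

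The rule fixed the members below precursors in Elane, Mpo and Prtn3, so their levels are a description. Elane, neutrophil elastase, stood at 10.6 CPM in takinib members and 5981 in precursors, Mpo, myeloperoxidase, at 3.12 and 3344. Ctsg, cathepsin G, which the rule did not use, stood at 1.20 and 2160 CPM, and Serpinb1a at 487 and 1010. Ms4a3, a marker of granulocyte-monocyte progenitors, measured 35.8 CPM in members, 1048 in precursors and 1.51 in mature neutrophils. Of 15 nucleolar and translation genes, high in growing cells, 0 were past 2-fold from mature neutrophils (median -0.25), and Npm1 stood at 104 CPM in members, 131 in mature neutrophils and 1294 in precursors. Of 18 secretory pathway genes 0 were past 2-fold, with a median of 0.01. For oxidative phosphorylation 0 of 21 were past 2-fold, with a median of 0.23.

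Many NF-kB targets were lower in the members, as were some genes of mature neutrophils. Of 28 NF-kB targets, 0 were past 2-fold higher and 19 past 2-fold lower, with a median of -1.09. Il1b, interleukin-1β, measured 2219 [2174, 2265] CPM in takinib immature and 6962 [6930, 6996] in takinib mature neutrophils, and 216 [108, 386] and 4954 [4574, 5357] in vehicle. Cxcl2, a neutrophil-attracting chemokine, measured 11052 and 28984 CPM in takinib, and 510 and 5222 in vehicle. Ccl3 measured 2400 and 7029 CPM in takinib, and 78.5 and 1735 in vehicle. Cut down to 1000 UMIs a barcode, 51.1% of takinib immature and 91.2% of takinib mature neutrophils had an Il1b UMI, against 35.4% of takinib macrophages. For these 3 genes the immature cells were the lower class in each library, and takinib immature neutrophils stood above vehicle immature neutrophils. Of 22 genes of mature neutrophils, 0 were past 2-fold higher and 8 lower, with a median of -0.89. They included Csf3r, the G-CSF receptor (306 and 772 CPM, -1.31), and Btg1, an antiproliferative gene (438 and 1133, -1.35). Cxcr2, the chemokine receptor of blood neutrophils, differed little at 318 and 385 CPM (-0.27), and Retnlg, a resistin-like protein of late granulopoiesis, was the higher in immature cells at 8195 and 5494 CPM (0.58). Of 15 genes tied to suppressor-type neutrophils 6 were past 2-fold lower (median -0.97), among them Cd274, the ligand PD-L1 (130 and 366 CPM). Of 17 interferon-response genes 4 were lower (-0.62). The TAK1 complex and IKK list, the direct target of the drug and its partners, had 0 of 10 past 2-fold, and Map3k7, which encodes TAK1, stood at 23.8 CPM in immature and 21.1 in mature takinib neutrophils.

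Among the 15 genes with the lowest ratios were Il1b, Il1a, Ccl3, Cxcl3, Saa1, Saa3, Acod1 and Atf3. Saa3, an acute-phase apolipoprotein, measured 6649 CPM in immature and 19255 in mature takinib neutrophils. Ins2, which encodes insulin, had the lowest ratio at -2.37, but 1055 of its 1209 counts in mature neutrophils came from 1 barcode.

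The balance of higher and lower genes depended on the total used. Camp, Ngp, Ltf, S100a8 and S100a9 took up so many of the members' UMIs that leaving them out of the totals gave 461 higher and 80 lower genes in place of 276 and 218, and moved the median over all genes from -0.10 to 0.05. Centring on the median gene gave 332 and 143. With these genes left out, the G2/M median was 1.58 and the NF-kB median -0.83, with 11 of 28 targets past 2-fold lower. The mature list had 3 of 22 lower and a median of -0.67, and the suppressor-type list 3 of 15 and -0.74. Cxcr2 moved to 0.02, and Slpi to -0.90, no longer past 2-fold.

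The members were also ordered among themselves by the share of UMIs from Camp, Ngp and Ltf, in groups of under 1% (205 takinib members), 1 to 2% (76), 2 to 4% (117), 4 to 6% (107) and 6% or more (141). The edges were set after the values were seen, and the share is the rule's own measure. Median UMIs ran from 4222 to 6375 over these groups, lowest at 1 to 2%. Of 5449 genes outside the rule with at least 50 counts, 222 (4.07%) were higher and 425 (7.8%) lower at each step towards the larger share. Against that background 22 of 47 G2/M genes and 5 of 13 secondary granule genes were higher at each step, and 14 of 27 NF-kB targets, 8 of 15 suppressor-type genes and 13 of 21 mature neutrophil genes were lower. With the rule genes out of the totals these became 25, 7, 11, 6 and 7, beside 405 and 224 of all 5449.

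From under 1% to 6% or more, Cebpe stood at 17.6, 50.2, 81.9, 174 and 273 CPM. Serpinb1a stood at 74.2, 321, 466, 723 and 924, and Chil3, a chitinase-like lectin, at 1685, 2125, 3920, 5215 and 7526. Fcnb had no count in the lowest group and 2.51, 33.3, 81.9 and 227 CPM in the next. These genes were thus highest in the cells with the largest secondary granule share. The share of members with any UMI of Elane, Mpo or Prtn3 was 12.2% in the lowest group and 41.1% in the highest, not corrected for depth.

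Several genes had their highest level at 1 to 2% and were lower on either side. Retnlg stood at 11848, 18341, 8897, 3828 and 2144 CPM. Mmp9, the gelatinase of tertiary granules, stood at 848, 1543, 1215, 872 and 529 CPM. Mmp8, the neutrophil collagenase, stood at 894, 1342, 938, 448 and 215. Cxcr2 (389, 507, 340, 270 and 169 CPM) and Ly6g, the surface antigen used to sort mouse neutrophils (304, 479, 285, 250 and 221), were also highest at 1 to 2%, at smaller differences. Of the genes of the activated cell, 3 examples were lower at each step. Il1b stood at 4049, 1982, 1965, 1658 and 594 CPM, Cxcl2 at 19897, 12876, 9089, 7950 and 2874, and Saa3 at 13100, 8650, 5497, 3487 and 887. For Il1b the intervals at 1 to 2% [1847, 2126] and 2 to 4% [1868, 2066] overlapped. With the rule genes out of the totals the order of these groups was reversed for Il1b. Cebpb, the C/EBP factor of stimulated granulocytes, opposed Cebpe at 3471, 2790, 2103, 1455 and 849 CPM. Cebpe and Fcnb thus had their highest level at the largest granule share, Retnlg, Mmp8 and Mmp9 at 1 to 2%, and Il1b, Cxcl2 and Saa3 at the smallest share. The gelatinase granule list had no single order: of 12 genes 1 was higher and 4 lower at each step, with Anxa1 at 895, 2281, 2846, 3636 and 4066 CPM and Fpr1, a formyl peptide receptor, at 507, 331, 276, 168 and 81.5.

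**Figure D3:**
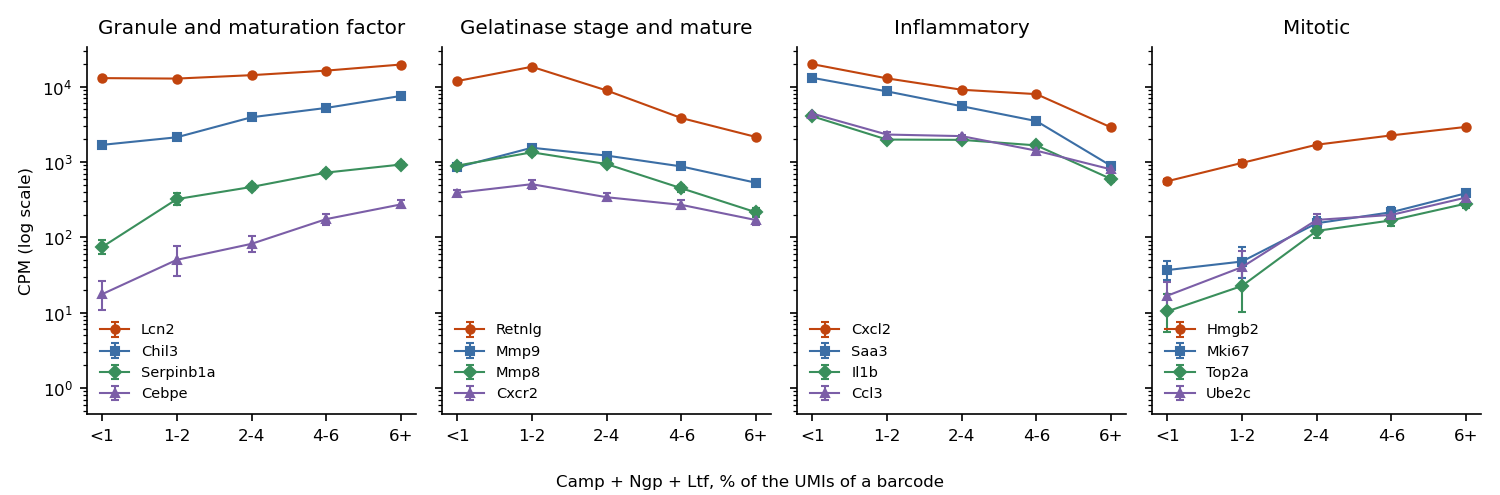
Level of 16 genes (CPM, log scale) in takinib immature neutrophils grouped by the share of UMIs from Camp, Ngp and Ltf, in 4 panels by role; bars are 95% Poisson intervals. Cebpe and Mki67 are higher at each step, Retnlg and Mmp9 are highest at 1 to 2% and Cxcl2 and Saa3 are lower at each step.

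Part of the members carried transcripts of dividing cells. All barcodes were thinned to 1000 UMIs and the UMIs of 37 S phase and 57 G2/M genes counted. At least 3 such UMIs were found in 41.5% [37.7, 45.4] of takinib members, 18.5% [17.7, 19.3] of takinib mature neutrophils, 99.2% of precursors and 16.7% of takinib macrophages; before thinning the first 2 shares were 92.6% and 54.0%. At least 5 UMIs were found in 22.9% [19.7, 26.3] of members, 3.37% [3.02, 3.76] of mature neutrophils, 97.7% [93.4, 99.5] of precursors and 5.66% of macrophages. At least 8 were found in 15.5% of members and 0.580% of mature neutrophils. After the same thinning, 9.91% of takinib members and 1.52% of takinib mature neutrophils had an Mki67 UMI. For Top2a the shares were 7.12% and 0.828%. The sum leans on the more abundant genes of the lists, so a barcode with 3 such UMIs need not be dividing. In vehicle, at least 3 were found in 6 of 13 members (46.2% [19.2, 74.9]) and 32 of 94 mature neutrophils (34.04% [24.6, 44.5]), with overlapping intervals. At least 5 were found in 3 and 5 of them, and at least 8 in 3 and 2. By this measure the takinib members lay between precursors and mature neutrophils.

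More of the G2/M than of the S phase genes stood above mature neutrophils. Of 49 G2/M genes compared, 35 were past 2-fold higher in takinib immature than mature neutrophils (median 1.28), and of 26 S phase genes 4 were (0.37). Mki67, the proliferation antigen, measured 173 [161, 186] CPM in takinib members and 25.4 [23.5, 27.5] in takinib mature neutrophils, with 275 [150, 461] in vehicle members and 458 in precursors. Top2a, the mitotic topoisomerase, measured 124, 10.3, 452 and 356 CPM in the same order. Ube2c, which serves the anaphase-promoting complex, measured 156 CPM in takinib members and 9.15 in mature neutrophils. The G2/M list summed to 4340 CPM in takinib members, 1208 in mature neutrophils and 10128 in precursors, and the S phase list to 471, 265 and 3529. Both sums in members lay between those of mature neutrophils and precursors. Of 148 members with at least 5 cycle UMIs, 146 had more from the longer G2/M list than from the S phase list. Cdkn2d, a CDK inhibitor, measured 187 CPM in members and 88.3 in mature neutrophils, and Cdkn1a, which encodes p21, 377 and 984.

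The share of cells with at least 5 cycle UMIs was 6.83% [3.78, 11.2] among members with under 1% of Camp, Ngp and Ltf and 6.58% [2.17, 14.7] at 1 to 2%. It was 23.1% [15.8, 31.8] at 2 to 4%, 33.6% [24.8, 43.4] at 4 to 6% and 46.8% [38.4, 55.4] at 6% or more. The intervals of both groups under 2% lay below those of both groups of 4% or more.

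**Figure D4:**
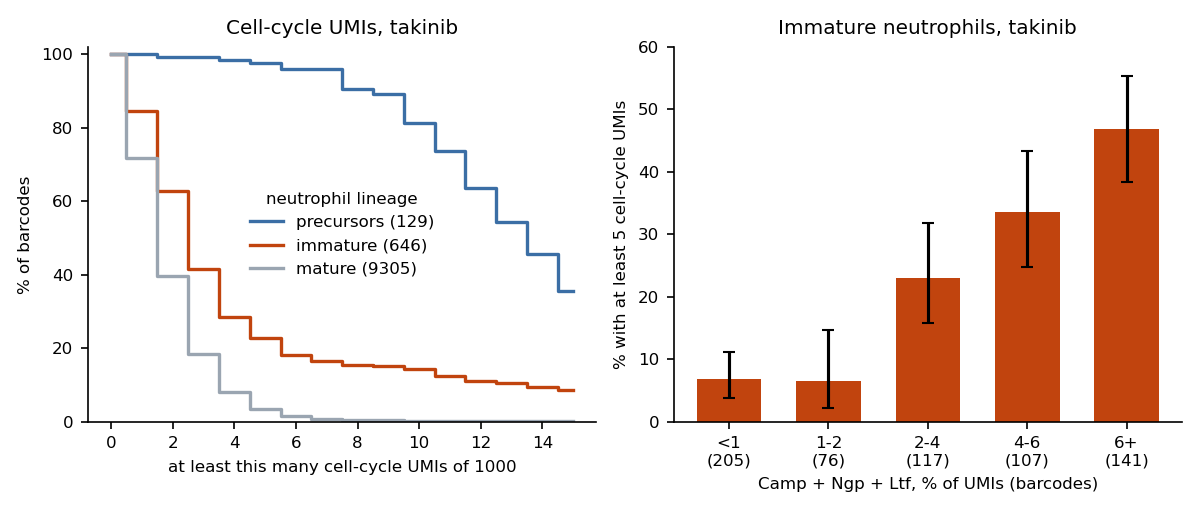
Left, percent of takinib barcodes (vertical) with at least the given number of cell-cycle UMIs out of 1000 (horizontal) for precursors, immature and mature neutrophils. Right, percent of takinib immature neutrophils with at least 5 such UMIs by share of UMIs from Camp, Ngp and Ltf, with 95% binomial intervals; the share is 46.8% in the group of 6% or more and 6.83% in the group under 1%.

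Dividing and other members were compared among the 441 takinib members with at least 1% of Camp, Ngp and Ltf. There were 134 with at least 5 cycle UMIs, 220 with fewer than 3 and 87 between. The cycling cells were deeper (median 7848 and 5115 UMIs) and had a larger granule share (5.96% and 3.36%). Of 2669 genes compared 213 (7.98%) were past 2-fold higher and 33 (1.24%) past 2-fold lower in the cycling cells, a contrast that the cycle genes themselves define. Histone and chromosome genes outside the lists led the higher side, such as Hist1h2ap (4.82), Hist1h1b (4.31) and Smc2 (4.18). The largest differences the other way were of Mmp8 (200 and 882 CPM in cycling and other members, -2.09), Retnlg (2359 and 9642, -2.03), Stfa3, a stefin (-1.92), and Mmp9 (341 and 1314, -1.92). Cebpe stood at 247 and 103 CPM (1.19), Fcnb at 182 and 62.0 (1.41) and Ms4a3 at 99.0 and 17.3 (2.00). Ltf (6587 and 6506), Lcn2 (16798 and 15997), Il1b (1391 and 1430) and Ccl3 (1571 and 1428 CPM) were close to equal, whereas Camp (20670 and 12902) and Ngp (29749 and 21634 CPM) were higher in the cycling cells. Cells with cycle transcripts thus had lower Mmp8, Mmp9 and Retnlg and higher Cebpe at like levels of Ltf, Il1b and Ccl3.

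The vehicle members were few. Of 107 genes past 2-fold in takinib with at least 20 counts in the vehicle classes, 99 had the same sign in vehicle. They were 29 of 33 higher and 70 of 74 lower ones. The other 8 had the opposite sign, 3 of them past 2-fold. The same rule set the classes of both libraries, and the share over all genes was not computed, so this count is a description. Camp, Ngp, Ltf, S100a8 and S100a9 took 28.1% of vehicle immature and 7.30% of vehicle mature UMIs, which lowers the CPM of other genes in the immature class. With 13 vehicle members, no comparison of all genes between treatments was made. The levels below set the 13 vehicle members beside the 441 takinib members of at least 1% Camp, Ngp and Ltf, since all vehicle members lay in that range. Ngp (25325 [23962, 26746] in vehicle and 25261 in takinib), Ltf (6832 [6133, 7589] and 6580), Mmp8 (589 [397, 841] and 624) and Mki67 (275 [150, 461] and 232 CPM) differed by less than the counting intervals. Camp was higher in vehicle at 23873 [22549, 25253] against 16265 CPM, as was Top2a at 452 [286, 678] against 173. These intervals treat UMIs as independent and leave out the spread between the 13 barcodes. Top2a was found in 23.1% of the 13, and Camp, Ngp and Ltf together ran from 14 to 861 UMIs a barcode. Il1b, Cxcl2 and Nfkbia were lower in vehicle. Il1b stood at 216 [108, 386] against 1430 CPM, Cxcl2 at 510 [333, 748] against 7239 and Nfkbia, the NF-kB inhibitor, at 196 [94.1, 361] against 860. Other genes of inflammation did not share this: Il1a stood at 118 [43.2, 256] in vehicle against 94.6 CPM and Bcl2a1b at 157 [67.8, 309] against 134. Saa3, Ccl4 and Ifitm1 had no count in the 50937 vehicle UMIs, with an interval that reaches 72.4 CPM, and stood at 3868, 996 and 1996 CPM in takinib. In the mature class the levels of Il1b (4954 in vehicle, 6962 in takinib), Cxcl2 (5222 and 28984) and Saa3 (94.7 and 19255 CPM) had the same order. Macrophages, a class apart from neutrophils, also had this order, with Il1b at 458 CPM in vehicle and 1189 in takinib, Cxcl2 at 511 and 4181 and Saa3 at 496 and 15183. The part of RNA from other cells in the members' levels was not tested. Library, treatment and tumour cannot be told apart here.

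**Figure D5:**
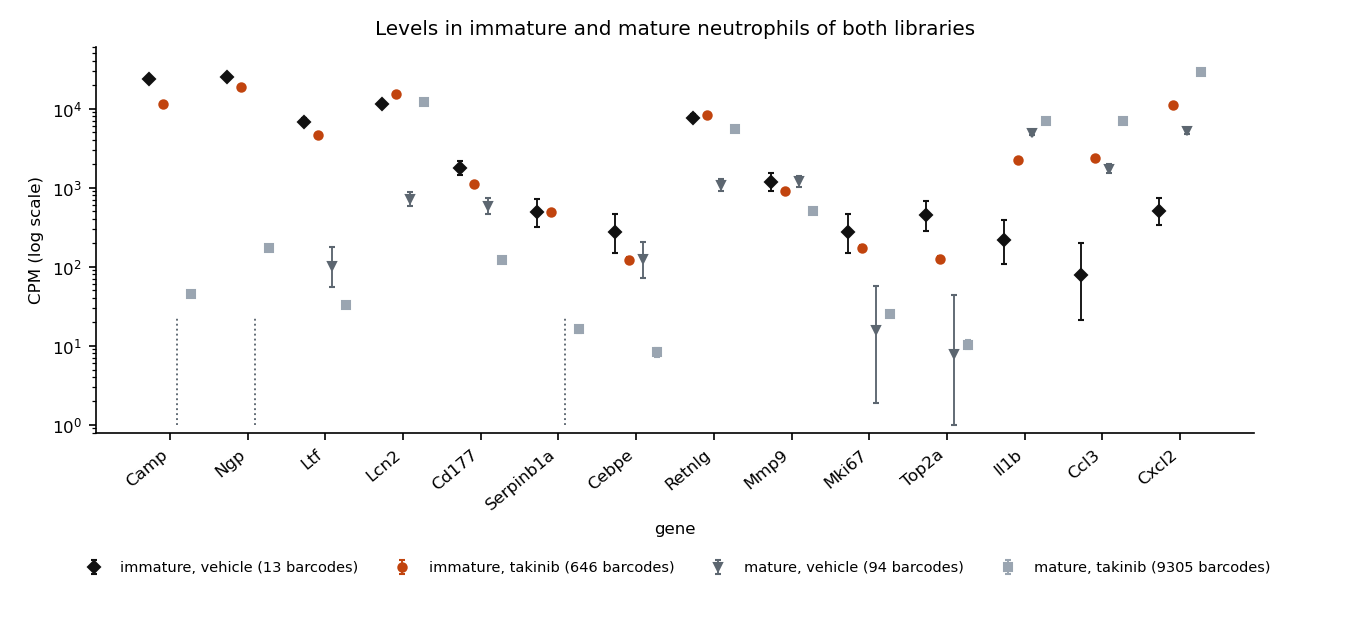
Level (CPM, log scale) of 14 genes in immature and mature neutrophils of the vehicle and takinib libraries, with 95% Poisson intervals. Dotted lines mark a count of 0 and reach the level of 3 counts (23.7 CPM in vehicle mature neutrophils), and interval ends under 1 CPM are drawn at 1. Camp, Ngp and Ltf are high in both immature classes, and Il1b, Ccl3 and Cxcl2 are lowest in the 13 vehicle immature neutrophils.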

How the data were processed

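The authors deposited unnormalized UMI counts, a gene-by-barcode matrix for each tumour library, made with Cell Ranger 4 (vehicle) and Cell Ranger 6.1.1 (takinib), per the file headers. The submitters' processing notes list mm10, Cell Ranger 2.1.1, STAR 2.0.4b, Subread, featureCounts 1.45 and bcl2fastq instead. Vehicle held 704261 barcodes and 80850334 UMIs, takinib 34158 and 139292875; 9872 and 26790 barcodes passed the filters, with medians of 3595 and 3050 UMIs and 8.68% and 1.84% mitochondrial UMIs. The members, the 31 gene lists and the tests were chosen with earlier results of these data known. For each class of cells in a library, UMIs were added up and scaled to CPM; ratios used genes with at least 50 counts in either class and 10 CPM added. With 1 sample in each group no test was run. Named genes are the 15 highest and 15 lowest ratios of immature to mature neutrophils, the 10 and 10 of cycling to other members, and list members by role; rule, mitochondrial, ribosomal, haemoglobin, immunoglobulin and unnamed genes were left out of the rankings. Doublets were scored with scanpy 1.11.5 (Scrublet); its threshold marked 0.00373% in takinib and 3.18% in vehicle, so none were removed in the main analysis. The ratio step was tested on simulated data. Of the list genes 4 had no match in the files. The 3 promoters were found in RefSeq's table.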

Additional observations from a re-analysis of the deposited data

Results flagged for a closer look

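For 3 genes the difference between immature and mature neutrophils was past 2-fold in opposite directions in the libraries, and the difference between libraries was not tested. Ccl6, a CC chemokine, had a log2 ratio of 1.65 in vehicle (161 and 127 counts in immature and mature cells) and -1.13 in takinib. Hist1h1d, a linker histone, had -1.82 in vehicle, on 6 and 56 counts, and 1.30 in takinib. Slpi had 1.70 in vehicle, on 26 and 19 counts, and -1.20 in takinib, where mature neutrophils held 118744 counts of it. With the rule genes left out of the totals the takinib ratios of Ccl6 (-0.84) and Slpi (-0.90) were no longer past 2-fold.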

How the results depend on the processing

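No paired analysis was possible because each group has 1 library. The takinib count of 646 stayed within 1.5 times under every alternative run, and the vehicle count of 13 was 6 with at least 2000 UMIs and 1000 genes. The takinib immature share of the lineage (6.41%) was 15.9% with that minimum, 9.18% with a gate of 5 UMIs, 5.11% with 20, 4.38% with a gate of 1% of UMIs, 4.90% when barcodes were thinned before the gate, 10.8% with mature cells from 10% S100a8 and S100a9, and 4.96% with a minimum of 500 UMIs and 250 genes. The share with at least 3 cycle UMIs (41.5%) was 45.7% with at least 2000 UMIs and 1000 genes, 32.5% and 48.0% with gates of 5 and 20 UMIs, and 50.1% with a gate of 1%. It was 62.7%, 22.9% and 15.5% with thresholds of 2, 5 and 8 cycle UMIs. The 494 genes past 2-fold became 252 with a gate of 5 UMIs, 902 with a gate of 1% and 1371 with 1 CPM added. Of 540 recomputed ratios of the 30 named genes none reversed, and 539 stayed past 2-fold. Lower genes, 218 in all, numbered 60, 371 and 552 with gates of 5 UMIs, 20 UMIs and 1%, and 827 beside 544 higher ones with 1 CPM added. Of 8 list medians recomputed over 18 settings, 7 kept their sign, and the fibroblast median ran from -1.13 to 1.92. The minimum of 500 UMIs, the threshold of 8, the removal of haemoglobin and collagen barcodes, the deeper mature cells, the totals without rule genes and another random draw were added after seeing the data. The comparison of takinib with vehicle over all genes was not run.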

Other observations

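Several enzymes of sugar use split within the takinib neutrophils. Hk3, the myeloid hexokinase, measured 131 CPM in immature and 50.0 in mature cells (log2 ratio 1.23), and Gpi1, glucose phosphate isomerase, 609 and 322 (0.90). Pfkfb3, which stimulates glycolysis, measured 167 and 432 CPM (-1.32), and Slc2a1, the glucose transporter GLUT1, 129 and 283 (-1.08). Without the rule genes in the totals Slc2a1 moved to -0.80, no longer past 2-fold, and Gpi1 to 1.19. Of 17 glycolysis genes 1 was past 2-fold higher and 5 lower, with a median of -0.43. With the rule genes left out of the totals 3 were higher and 1 lower, with a median of -0.14. Tkt, a transketolase of the pentose phosphate route beside G6pdx, measured 438 and 91.0 CPM (2.15); it was chosen after its values were seen.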
